A study of Mus musculus with 23 samples.

Results

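Levels of 10 genes that make, handle or block microRNAs were followed across all 23 RNA-seq libraries of a mouse study on LIN28. The genes were taken by name from the 53715 genes that each expression table lists; no threshold on their values was used, but earlier results of these data were known when the list was drawn up. They are the let-7 blockers Lin28a and Lin28b, the exonuclease gene Dis3l2, the nuclear processing genes Drosha and Dgcr8, the exporter gene Xpo5, the cytoplasmic processing genes Dicer1 and Tarbp2, and the effector genes Ago1 and Ago2. The values are TPM, a transcript level corrected for gene length and scaled to a fixed total in each library.

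Embryonic stem (ES) cells made up 5 groups of 3 libraries each: Lin28a-null ES cells, ES libraries labelled Lin28b-null, ilet7 ES cells given doxycycline for 3 days, untreated ilet7 ES cells, and WT ES cells. The ilet7 line carries a let-7 gene that doxycycline switches on, and no line without that gene was given the drug, so an effect of the drug and of the let-7 cannot be told apart. A further pair of groups, with 3 libraries each, was induced pluripotent stem (iPS) cells reprogrammed from embryonic fibroblasts, labelled as a Lin28a and Lin28b double knockout and as WT. The last pair was 1 pool each of C57BL/6J embryos that had received a Lin28a siRNA pool (siLin28) or control siRNA as zygotes. All ES and iPS cells were grown for 2 days on feeder fibroblasts in LIF/2i medium, which holds mouse stem cells in a naive state, and were depleted of feeders before lysis. The study made Lin28a knockout ES clones with CRISPR/Cas9 aimed at the second exon and also used ES cells from knockout mice. Which of these the sequenced null ES libraries came from is not given in the labels. Nothing states that the 3 libraries of a group came from separate cultures, so p-values measure only the spread between these libraries.

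A microRNA starts as a hairpin in a long primary transcript. DROSHA with DGCR8 cuts the hairpin out, XPO5 carries it to the cytoplasm, DICER1 with TARBP2 cuts it to a short duplex, and an Argonaute protein such as AGO1 or AGO2 uses 1 strand to find and silence mRNAs. LIN28A and LIN28B bind the let-7 precursor and block its cutting. On the precursor, LIN28A recruits the enzymes TUT4 and TUT7, which add a tail of uridines, and DIS3L2 degrades the tailed RNA. Mature let-7 in turn represses Lin28a and Lin28b through sites in their mRNAs, and mouse ES cells hold little of it.

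The sequences of the let-7 family are given first because both the block and the repression depend on them. The 9 mature 5p forms in RefSeq, from loci on mouse build mm10, share 1 seed, the 7 bases at positions 2 to 8 that pair with a target, shown in capitals.
mmu-let-7a-5p: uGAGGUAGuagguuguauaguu
mmu-let-7b-5p: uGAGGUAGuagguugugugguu
mmu-let-7c-5p: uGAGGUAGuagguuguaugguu
mmu-let-7d-5p: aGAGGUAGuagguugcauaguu
mmu-let-7e-5p: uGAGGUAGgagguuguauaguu
mmu-let-7f-5p: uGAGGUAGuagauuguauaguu
mmu-let-7g-5p: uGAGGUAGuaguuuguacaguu
mmu-let-7i-5p: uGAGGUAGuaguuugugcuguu
mmu-miR-98-5p: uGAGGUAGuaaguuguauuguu

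A GGAG run in the loop of the precursor is a known contact of the LIN28 zinc fingers. Of the 12 let-7 hairpins in RefSeq, 9 held GGAG between their arms and 3 did not, namely Mirlet7b, Mirlet7c-2 and Mir98. One hairpin of each kind is shown, with GGAG in capitals where it occurs. Mirlet7g lies at chr9:106178840-106178927 on the plus strand and Mirlet7b at chr15:85707319-85707403 on the plus strand of mm10.
Mirlet7g: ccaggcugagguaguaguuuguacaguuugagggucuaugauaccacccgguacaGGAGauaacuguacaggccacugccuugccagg
Mirlet7b: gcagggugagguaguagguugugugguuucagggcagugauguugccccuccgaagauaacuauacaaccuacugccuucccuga

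The mRNA letters that pair with the shared seed are CTACCTC. They were searched on the mRNA strand alone, in the longest annotated 3′ UTR of each coding gene. Of 21677 genes with a 3′ UTR, 8.75% held the letters at least once. Lin28b held 4 matches, Ago2 held 3, Lin28a held 2 and Tarbp2 held 1, while Drosha, Dgcr8, Xpo5, Dicer1, Ago1 and Dis3l2 held none there. UTR length differed widely, so the share among genes whose 3′ UTR was within a factor of 1.25 in length is the closer background. That share was 24.4% for Lin28b, 46.2% for Ago2, 14.75% for Lin28a and 2.88% for Tarbp2. All 10 matches are shown with the bases around them, the paired letters in capitals.
Lin28a site 1, chr4:134005189-134005211: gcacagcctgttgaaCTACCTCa
Lin28a site 2, chr4:134004551-134004573: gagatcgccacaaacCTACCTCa
Lin28b site 1, chr10:45381022-45381044: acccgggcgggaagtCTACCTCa
Lin28b site 2, chr10:45378648-45378670: tatacttgttagtaaCTACCTCt
Lin28b site 3, chr10:45378476-45378498: gtttacagcacatggCTACCTCc
Lin28b site 4, chr10:45377060-45377082: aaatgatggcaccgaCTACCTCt
Ago2 site 1, chr15:73101724-73101746: acagatgcataaaagCTACCTCt
Ago2 site 2, chr15:73100040-73100062: caggtggcctctgtcCTACCTCc
Ago2 site 3, chr15:73097982-73098004: ttttacaatgtggatCTACCTCa
Tarbp2 site, chr15:102523429-102523451: ccagaggtgccatctCTACCTCt

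The Lin28a, Lin28b and Ago2 sites lie on the minus strand and the Tarbp2 site on the plus strand of mm10, all in the last exon. The first Lin28b site starts 36 bases after the stop codon. In the coding sequence of the same transcripts, 12.0% of all genes held the letters. Dicer1 held 4 coding matches in exons 16, 21 and 24, Xpo5 held 2 and Lin28b held 1, and the other 7 genes held none. Among genes whose coding sequence was within a factor of 1.25 in length, the share was 39.7% for Dicer1 (5721 bases), 28.3% for Xpo5 and 6.85% for Lin28b. The coding matches are shown too, those of Dicer1 and Lin28b on the minus strand and those of Xpo5 on the plus strand. Shorter seed pairings, 5′ UTRs and other transcripts were not searched for the seed.
Dicer1 coding match 1, chr12:104706559-104706581: tcagcctactgtgttCTACCTCt
Dicer1 coding match 2, chr12:104702804-104702826: tacctgtacaaccaaCTACCTCa
Dicer1 coding match 3, chr12:104702696-104702718: ggaacgctaacacatCTACCTCa
Dicer1 coding match 4, chr12:104694696-104694718: agatgcgattttggaCTACCTCa
Xpo5 coding match 1, chr17:46217600-46217622: cttggtcgaaaaacaCTACCTCt
Xpo5 coding match 2, chr17:46236983-46237005: tggacctctcttcacCTACCTCc
Lin28b coding match, chr10:45381378-45381400: gctaaagaatgcagtCTACCTCc

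**Figure D1:**
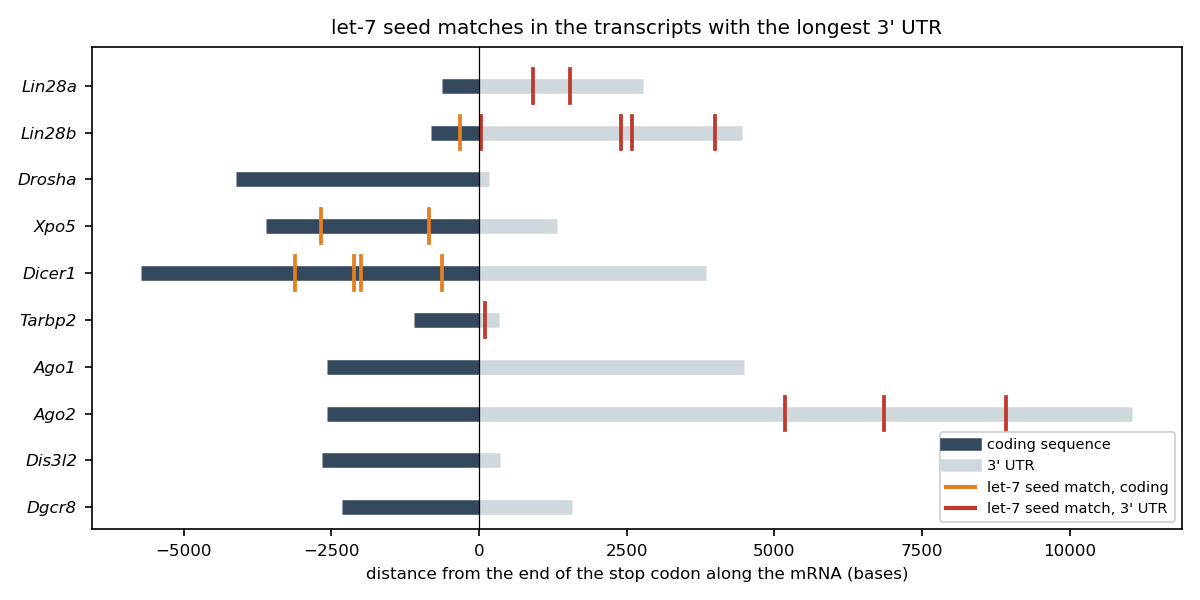
Matches to the let-7 seed along the transcript of each gene with the longest annotated 3′ UTR. The x axis is the distance in bases from the end of the stop codon, dark bars are coding sequence, pale bars 3′ UTR, orange ticks the 7 coding matches and red ticks the 10 matches in 3′ UTRs. Lin28a, Lin28b, Tarbp2 and Ago2 carry their 3′ UTR matches after the stop codon and Dicer1 carries 4 inside its coding sequence.

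The 4 siRNAs injected into zygotes each matched the Lin28a transcript of 3505 bases and 4 exons over their full 19 bases. One site was in the coding part of exon 3 and 3 sites were in the 3′ UTR in exon 4. None matched a Lin28b transcript or a transcript of another coding gene without a mismatch. The coding one lies at chr4:134007927-134007945, minus strand, and was found in 3 annotated Lin28a transcripts, the UTR ones in 1 each.
siRNA 2, sense strand: aagaacaugcagaagcgaa

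Before any comparison, the libraries were checked against markers. All 10 pluripotency markers listed were above 0 in every group, and their summed level was between 5534 and 9068 TPM in ES and iPS libraries and between 4410 and 5368 TPM in embryos. Feeder and fibroblast markers (14 genes, including the collagens Col1a1 and Col3a1) were also above 0 in every ES and iPS group. Their summed level was 3718 to 4862 TPM in Lin28a-null ES, 1278 to 1943 TPM in ES libraries labelled Lin28b-null and 1639 to 2949 TPM in WT ES. It was 1495 to 1739 TPM in ilet7 ES with doxycycline and 1271 to 1467 TPM in control ilet7 ES. In iPS cells it was 3639 to 5316 TPM in libraries labelled double knockout and 2539 to 3993 TPM in WT. In embryos it was 17.2 TPM with siLin28 and 9.79 TPM in the control, where Col1a2, Dcn, Lum and Twist1 were at 0 in both pools. Fewer cells of a type and less RNA per cell cannot be told apart in such bulk libraries. The ES and iPS tables were scaled separately and differ in make-up: Rmrp, an RNA without a poly-A tail, was at 7681 to 10365 TPM in iPS libraries and at 1.27 to 196 TPM in ES libraries. Levels set side by side across tables are therefore a description, and tests were made within a table.

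Cell-state markers moved as well, and their part in the results below was not tested. In Lin28a-null ES 2 of 10 pluripotency markers rose and 3 fell, where 38.2% of all genes tested passed. The largest changes were those of Zfp42, which fell by 1.38, Utf1, which fell by 1.15, and Tdgf1, which rose by 0.86. With the label Lin28b-null 3 rose and 1 fell, where 28.6% of all genes passed, led by Tdgf1 (0.54), Nanog (0.46) and Dppa5a (-0.34). Doxycycline had 5 up and 2 down, where 19.0% of all genes passed, led by Klf4 (0.79), Tfcp2l1 (0.41) and Zfp42 (0.39). Libraries labelled double knockout had 2 up and 1 down, where 16.3% of all genes passed, Utf1 (0.91), Tdgf1 (0.78) and Tfcp2l1 (-0.44). Of 10 blastocyst and trophectoderm markers, 1 of 8 tested rose and 2 fell in Lin28a-null ES, led by Krt18 (-1.39), Eomes (0.94) and Tfap2c (-0.87). With the label Lin28b-null 3 of 7 rose and 1 fell, led by Tfap2c (-1.17), Krt8 (1.10) and Nanog. Pou5f1 and Nanog are in both marker lists and are counted in each. Both rose with this label, and Nanog rose with doxycycline too. With doxycycline 3 of 8 rose and 1 fell, led by Krt8 (1.03), Eomes (0.59) and Krt18 (-0.38), and in libraries labelled double knockout 1 of 8 rose and 4 fell, led by Tfap2c (-1.62), Gata3 (-1.09) and Krt8 (-1.06).

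Lin28a, at chr4:134003330-134018841 on the minus strand, was the most variable of the 10 genes and went in opposite directions in the null ES groups. Its mRNA was lower in Lin28a-null ES cells, higher in ES libraries labelled Lin28b-null, lower after doxycycline in ilet7 cells and lower in the iPS libraries labelled double knockout. It was present in every library, at 6.26 to 81.0 TPM over the 21 ES and iPS libraries, so no null group lost the transcript. A gene-level value sums reads over the whole gene and does not show whether a short edited stretch is present.

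Lin28a was at 14.6, 21.0 and 15.8 TPM in Lin28a-null ES, against 31.5, 61.2 and 32.0 TPM in WT ES. The groups did not overlap, and WT replicate 2 stood apart at the high end. In the limma fit with Benjamini-Hochberg adjustment over all genes, Lin28a fell by 1.18 on the log2(TPM + 1) scale (SE 0.27, adjusted p = 0.0135). Fibroblast markers moved the other way: 13 of 14 rose in Lin28a-null ES, where 20.4% of all genes rose. Among them were Twist2 (2.44), Col6a1 (2.10) and Dcn (1.96) on the log2 scale, and the part of these markers in the Lin28a value was not tested. WT replicate 2 also had the highest fibroblast sum of the WT group, 2949 TPM against 1639 and 1765 TPM. Without WT replicate 2 the Lin28a change was -0.87 with an adjusted p of 0.00696. Without Lin28a-null replicate 1 the change was -1.08 and the adjusted p 0.0517, and over all 15 alternatives the adjusted p ran from 0.000495 to 0.0517.

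In ES libraries labelled Lin28b-null, Lin28a was at 77.1, 81.0 and 66.6 TPM, above all 3 WT libraries. It rose by 0.90 (SE 0.25, adjusted p = 0.0334). This call was lost in 7 of 15 alternatives, with adjusted p from 0.00108 to 0.101. Leaving out WT replicate 1 or 3 or any 1 of the 3 libraries labelled Lin28b-null ended it, with changes of 0.74 to 0.98, whereas without WT replicate 2 the change was 1.21. Set directly against each other, Lin28a-null libraries differed from those labelled Lin28b-null by -2.08 (SE 0.15, adjusted p = 0.000106). Fibroblast markers differed between the null groups as well: in that contrast 14 of 14 were higher in Lin28a-null, where 25.8% of all genes were. Against WT, with the label Lin28b-null, Fn1 alone of the 14 passed and fell by 0.75, where 28.6% of all genes passed. The part of these markers was not tested.

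Doxycycline separated the Lin28a values clearly. Lin28a was at 7.32, 6.26 and 6.94 TPM in ilet7 ES with doxycycline, against 24.9, 20.4 and 23.7 TPM in control ilet7 ES. It fell by 1.61 (SE 0.10, adjusted p = 0.000552), 0.328 of the control level on the TPM + 1 scale, and passed in all 15 alternatives. The control ilet7 libraries all lay below the WT ES ones, with a difference of -0.76 and an adjusted p of 0.0797. In iPS cells Lin28a was at 10.5, 11.6 and 9.51 TPM in libraries labelled double knockout, against 36.2, 16.0 and 24.6 TPM in WT. It fell by 1.13 (SE 0.27, adjusted p = 0.0313), but the call was lost in 7 of 14 alternatives, among them leaving out any 1 library other than WT replicate 2, with adjusted p from 0.0120 to 0.0917. Without WT replicate 1 the change was -0.86, and without WT replicate 2 it was -1.42. Of 14 fibroblast markers 3 rose in libraries labelled double knockout, where 8.77% of all genes rose. They were Dcn (1.42), Lum (0.90) and Twist1 (0.77), and their part was not tested.

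Lin28b, the second LIN28 gene, at chr10:45376620-45486395 on the minus strand, was higher in all 3 groups labelled as null for a Lin28 gene, including the one labelled Lin28b-null. It was at 8.81, 8.79 and 8.69 TPM in Lin28a-null ES, against 3.63, 5.18 and 4.69 TPM in WT ES. The null libraries lay close together and above every WT library, and Lin28b rose by 0.84 (SE 0.16, adjusted p = 0.00633).

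Lin28b itself, in ES libraries labelled Lin28b-null, was at 12.5, 13.8 and 12.6 TPM, the highest of the 7 ES and iPS groups. It rose by 1.35 against WT ES (SE 0.17, adjusted p = 0.00141), so the null label did not come with a lower mRNA level. The values do not show which part of the gene the reads came from or whether a short edited stretch is present. They do not test the label. In iPS libraries labelled double knockout, Lin28b was at 10.3, 10.4 and 11.6 TPM, against 4.14, 2.16 and 2.17 TPM in WT. It rose by 1.65 (SE 0.23, adjusted p = 0.00403), so here too the label did not come with a lower Lin28b mRNA level. These 3 rises of Lin28b passed in every alternative run, 15 for each ES comparison and 14 for the iPS one. Lin28b was also lower in Lin28a-null ES than in ES libraries labelled Lin28b-null, with a difference of -0.52 (SE 0.10, adjusted p = 0.00660).

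Doxycycline did not separate the Lin28b values. They were 3.55, 2.98 and 3.41 TPM in ilet7 ES with doxycycline and 2.63, 3.47 and 3.65 TPM in control ilet7 ES, and the groups overlapped. The change was 0.03 (SE 0.14, 95% interval -0.31 to 0.37, adjusted p = 0.910). In their 3′ UTRs Lin28b has 4 seed matches and Lin28a has 2, and the part of these sites in either value was not tested. Lin28b was low in both ilet7 groups, where the log2(TPM + 1) scale understates a change. The effect of doxycycline minus the effect of the Lin28a-null label was -0.81 for Lin28b (SE 0.20, adjusted p = 0.0127).

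**Figure D2:**
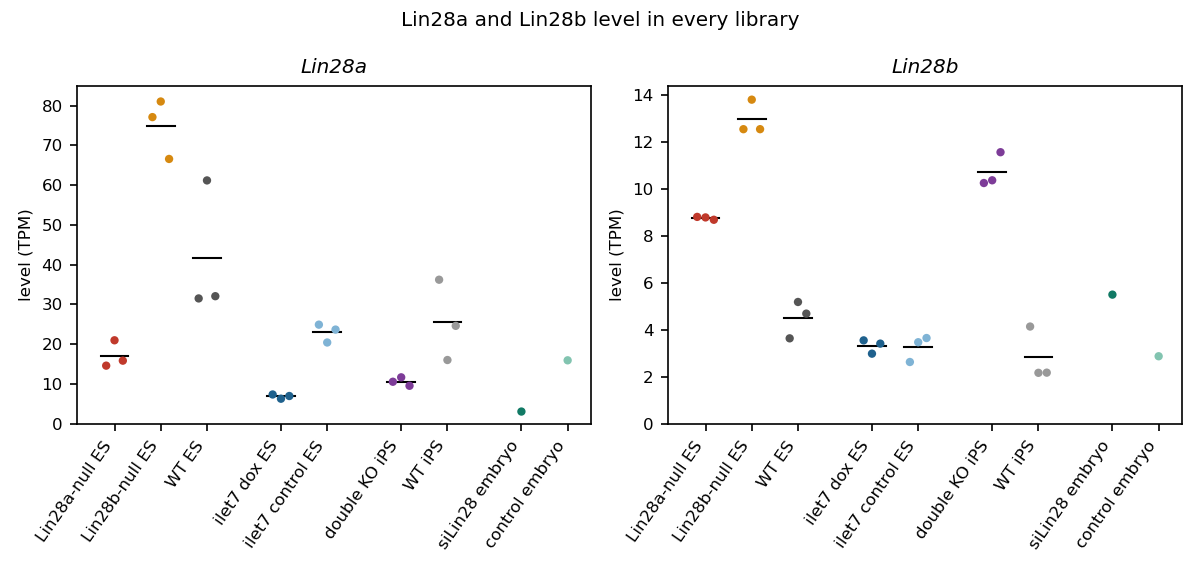
Lin28a (left) and Lin28b (right) level in TPM in every library, by group. Points are libraries, bars the means of 3 libraries, and each embryo group is 1 pool. Lin28a is highest in the libraries labelled Lin28b-null (66.6 to 81.0 TPM) and lowest among cells in those with doxycycline (6.26 to 7.32 TPM), while Lin28b is above WT in the 3 groups labelled as null for a Lin28 gene. Groups are named by their labels.

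TPM corrects for length, so both genes were set side by side within a library, but it does not correct for other differences in how reads map to them. Lin28b made up 34.2 ± 4.2% of the summed Lin28a and Lin28b level in Lin28a-null ES, 14.8 ± 0.956% in ES libraries labelled Lin28b-null and 10.3 ± 2.47% in WT ES (SD, n = 3 each). It made up 32.6 ± 0.342% in ilet7 ES with doxycycline and 12.5 ± 2.61% in control ilet7 ES. In iPS cells it made up 50.4 ± 4.0% in libraries labelled double knockout and 10.1 ± 1.91% in WT. The summed level was 25.9 ± 3.39 TPM in Lin28a-null ES, 87.9 ± 8.0 TPM in ES libraries labelled Lin28b-null and 46.1 ± 17.6 TPM in WT ES, and 10.2 ± 0.833 TPM with doxycycline against 26.2 ± 2.04 TPM in control ilet7 ES. In iPS cells the sum was 21.3 ± 0.640 TPM in libraries labelled double knockout and 28.4 ± 11.2 TPM in WT, and the groups overlapped, with WT replicate 2 at 18.2 TPM. In all 4 comparisons every library of the null or treated group had a higher share of Lin28b than every library of its control. The share restates the Lin28a and Lin28b values above and is not a further result. With doxycycline it was higher because Lin28a was lower, as Lin28b averaged 3.31 TPM, against 3.25 TPM in control ilet7 ES.

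In embryos, with 1 pool per group and no test, Lin28a was at 3.03 TPM with siLin28 and 15.9 TPM in the control, a difference of -2.07 on the log2(TPM + 1) scale. Lin28b was at 5.50 TPM with siLin28 and 2.87 TPM in the control, a difference of 0.75. Of 14875 genes compared, 15.6% lay at least 2-fold apart on that scale, 8.28% higher and 7.31% lower with siLin28. Lin28b made up 64.5% of the summed level with siLin28 and 15.3% in the control. Among the 10 genes, Lin28a and Dis3l2 lay past 2-fold.

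Over the ES and iPS groups the order of the Lin28a means, by label, was Lin28b-null ES, WT ES, WT iPS, control ilet7 ES, Lin28a-null ES, double knockout iPS and doxycycline ilet7 ES. From WT ES down to Lin28a-null ES each neighbouring pair of groups overlapped, and the other neighbours did not. For Lin28b the order by label was Lin28b-null ES, double knockout iPS, Lin28a-null ES, WT ES, doxycycline ilet7 ES, control ilet7 ES and WT iPS, and only the last 3 overlapped with their neighbours.

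The named genes most like each LIN28 gene were taken by Pearson correlation of log2(TPM + 1) over the 15 ES libraries, given without a p because libraries of a group move together. For Lin28a they were Rpa3, a single-strand DNA binding subunit (r = 0.945), Cdc123 (0.935), Ranbp3 (0.935), Odc1, which starts polyamine synthesis (0.932), and Uchl1, a ubiquitin hydrolase (0.925). Their spread was smaller: Rpa3 averaged 190 TPM in ES libraries labelled Lin28b-null, 138 TPM in Lin28a-null ES and 161 TPM in WT ES. For Lin28b they were Coa5 (0.975), Tapbpl (0.970), Rbm19 (0.968), Cenpe, a kinetochore motor (0.966), and Pwp2 (0.965). Tapbpl averaged 3.98 TPM in Lin28a-null ES, 7.17 TPM in ES libraries labelled Lin28b-null and 1.53 TPM in WT ES.

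The other genes tested varied less, by at most 2.75-fold between the highest and the lowest ES or iPS library. Of the 10 genes, 9 passed the filter of a mean of at least 1 TPM in each comparison and were tested. In Lin28a-null against WT ES, 2 of them passed, 1 up and 1 down, where 38.2% of all genes tested passed, 20.4% up and 17.8% down. In the libraries labelled Lin28b-null against WT ES, 3 rose and 0 fell, where 28.6% of all genes passed, 13.4% up and 15.1% down. Both comparisons share the WT libraries. In doxycycline against control ilet7 ES, 0 rose and 3 fell, where 19.0% of all genes passed, 13.3% up and 5.68% down. That split rests on the scaling: 70.1% of the genes that passed were up as deposited, 53.4% after quantile normalization and 52.8% after median-of-ratios scaling. In libraries labelled double knockout against WT iPS, 1 rose and 1 fell, where 16.3% of all genes passed, 8.77% up and 7.51% down.

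**Figure D3:**
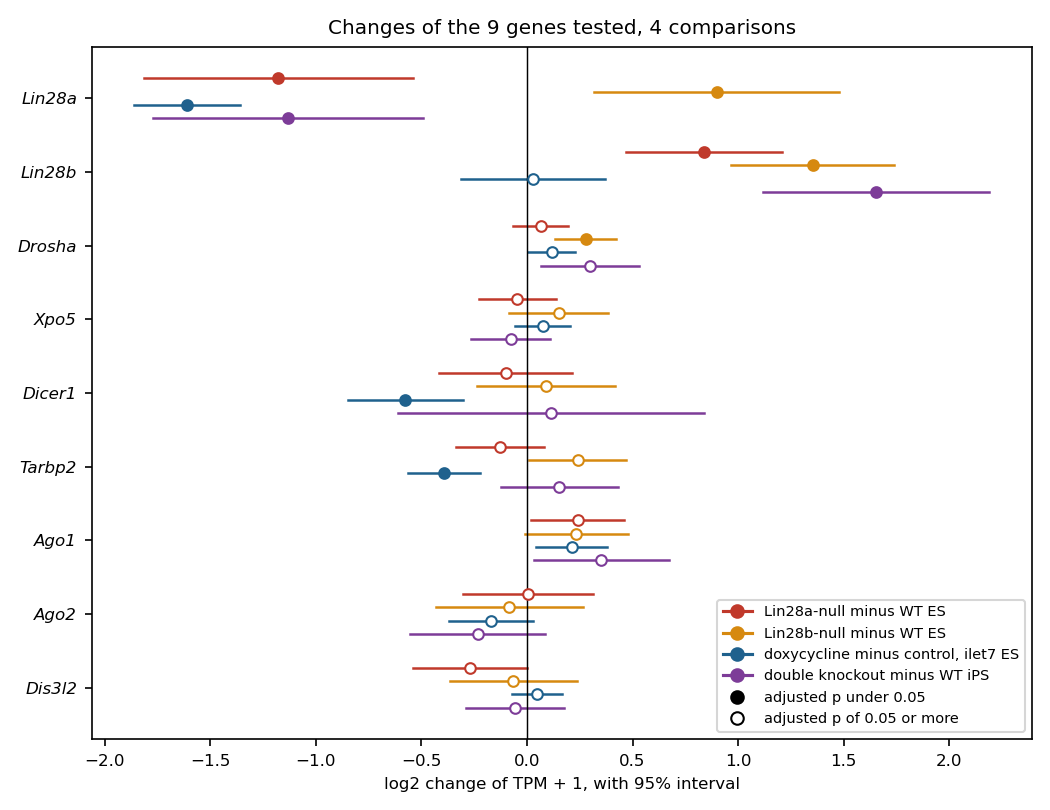
Log2 change of TPM + 1, with its 95% interval, of the 9 genes tested in 4 comparisons, each as the null or treated group minus its control. Filled points have an adjusted p under 0.05. Lin28a and Lin28b lie farthest from 0 except with doxycycline, where Lin28b (0.03) is close to 0 and Dicer1 and Tarbp2 are filled, and most intervals of the other genes include 0.

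Drosha, at chr15:12824815-12935291 on the plus strand, encodes the nuclear RNase III enzyme that makes the first cut. It was at 157, 154 and 156 TPM in ES libraries labelled Lin28b-null, against 126, 129 and 130 TPM in WT ES, and the groups did not overlap. It rose by 0.28 (SE 0.06, adjusted p = 0.0147). The call was lost without replicate 1 or 2 of the libraries labelled Lin28b-null or WT replicate 1, and with no variance trend, and the adjusted p ran from 0.000178 to 0.0590 over 15 alternatives. In Lin28a-null ES, Drosha was at 134, 133 and 136 TPM, a change of 0.06 against WT (adjusted p = 0.390). Lin28a-null libraries lay below those labelled Lin28b-null, with a difference of -0.21 (SE 0.05, adjusted p = 0.00827), and this difference passed in all 15 alternatives. In iPS cells, Drosha was at 93.6, 95.5 and 85.2 TPM in libraries labelled double knockout, against 79.5, 77.0 and 66.1 TPM in WT. The groups did not overlap and the change was 0.30, with an adjusted p of 0.0825. With doxycycline the values were 138 to 148 TPM, against 128 to 135 TPM in control ilet7 ES, a change of 0.12 (adjusted p = 0.131). In embryos Drosha was at 25.3 TPM with siLin28 and 25.9 TPM in the control.

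Dgcr8, the RNA-binding partner of DROSHA, at chr16:18253948-18289246 on the minus strand, was listed at 0 in 22 of 23 libraries and at 0.0404 TPM in the other one, a control ilet7 ES library. Its neighbours were listed in the same way. Dgcr8 lay in a run of 9 annotated coding genes, from Dgcr6 to Tango2 (chr16:18052860-18348103), all under 1 TPM in every library, and 6 of them were at 0 throughout. The run holds Ranbp1 and Trmt2a, which growing cells use, and Slc25a1, a neighbour beyond it, reached 229 TPM. A value of 0 here is what the table lists and was not read as a level, and Dgcr8 was not tested.

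Xpo5, at chr17:46202782-46243598 on the plus strand, encodes the exporter of hairpin precursors and had the smallest fold range of the 9 tested genes over the ES and iPS libraries, 1.49-fold from 90.7 to 136 TPM. It was at 102 to 110.1 TPM in Lin28a-null ES, 114 to 136 TPM in ES libraries labelled Lin28b-null and 101 to 118 TPM in WT ES. With doxycycline it was at 92.9 to 102 TPM, against 90.7 to 96.3 TPM in control ilet7 ES. In iPS cells it was at 92.1 to 95.3 TPM in libraries labelled double knockout and 91.5 to 105 TPM in WT. Each null or treated group overlapped its control, and Xpo5 passed in none of the 7 contrasts. Its changes were -0.05 in Lin28a-null ES (95% interval -0.23 to 0.14), 0.15 in ES libraries labelled Lin28b-null (-0.08 to 0.38), 0.08 with doxycycline (-0.05 to 0.21) and -0.08 in libraries labelled double knockout (-0.27 to 0.11). In embryos it was at 21.1 TPM with siLin28 and 15.9 TPM in the control.

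Dicer1, at chr12:104687742-104751952 on the minus strand, encodes the enzyme that removes the loop of the precursor. It was at 28.7, 34.9 and 38.4 TPM in ilet7 ES with doxycycline, against 47.1, 54.8 and 50.9 TPM in control ilet7 ES, and all treated libraries lay below all controls. It fell by 0.58 (SE 0.11, adjusted p = 0.0170). The adjusted p ran from 0.0107 to 0.0551 over 15 alternatives, and the call was lost without control replicate 2 or 3. Fibroblast markers moved with doxycycline too, with 7 of 13 tested markers up, where 13.3% of all genes rose, a share that rests on the scaling. Lum (0.66), Twist1 (0.58) and Thy1 (0.56) led them, and the part of these markers was not tested. Dicer1 was not separated in Lin28a-null ES, at 44.5, 41.1 and 51.3 TPM, against 43.2, 46.4 and 58.0 TPM in WT ES. Its change there was -0.10 (95% interval -0.42 to 0.21). The libraries labelled Lin28b-null had 51.2, 46.6 and 59.1 TPM, a change of 0.09 (95% interval -0.24 to 0.42). The doxycycline effect minus the Lin28a-null effect was -0.47 with an adjusted p of 0.0830, so a difference between the effects did not pass. In libraries labelled double knockout Dicer1 was at 46.3, 47.4 and 70.9 TPM, against 78.9, 44.9 and 34.4 TPM in WT iPS, a spread that left an interval of -0.61 to 0.84. In embryos it was at 12.8 TPM with siLin28 and 6.62 TPM in the control, a difference of 0.86.

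Tarbp2, at chr15:102518192-102523676 on the plus strand, encodes a double-strand RNA binding partner of DICER1. It was at 53.3, 45.7 and 52.0 TPM with doxycycline, against 67.9, 64.3 and 66.9 TPM in control ilet7 ES, without overlap. It fell by 0.39 (SE 0.07, adjusted p = 0.0123) and passed in all 15 alternatives. In Lin28a-null ES it was at 77.3, 73.2 and 67.3 TPM, against 84.3, 81.8 and 72.3 TPM in WT ES, and the groups overlapped. It was at 85.8, 93.9 and 102 TPM in ES libraries labelled Lin28b-null, above every WT library, with a change of 0.24 and an adjusted p of 0.110. Lin28a-null libraries were lower than those labelled Lin28b-null, with a difference of -0.37 (SE 0.09, adjusted p = 0.0124). In iPS cells it was at 50.7, 63.0 and 62.6 TPM in libraries labelled double knockout and 53.8, 56.0 and 47.8 TPM in WT. In embryos it was at 46.2 TPM with siLin28 and 39.3 TPM in the control.

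Ago1, at chr4:126435012-126468583 on the minus strand, encodes an Argonaute that binds the mature microRNA. Its change was positive in all 4 main comparisons and passed in none: 0.24 in Lin28a-null ES (adjusted p = 0.0806), 0.23 in ES libraries labelled Lin28b-null (adjusted p = 0.135), 0.21 with doxycycline (adjusted p = 0.0798) and 0.35 in libraries labelled double knockout (adjusted p = 0.127). It was at 41.5, 38.1 and 37.5 TPM in Lin28a-null ES, against 31.1, 31.7 and 36.0 TPM in WT ES. In libraries labelled double knockout it was at 27.0, 34.2 and 24.8 TPM, against 22.9, 21.6 and 21.8 TPM in WT iPS. In each of the 4 comparisons every library of the group named first lay above those of its control. The margin was small for the libraries labelled Lin28b-null, at 36.0, 39.3 and 41.4 TPM, whose lowest value and the highest WT value both round to 36.0 TPM. With doxycycline Ago1 was at 38.2, 35.9 and 40.6 TPM, against 31.1, 33.8 and 33.7 TPM in control ilet7 ES. The comparisons labelled Lin28a-null and Lin28b-null share the WT libraries. How many of all genes lay wholly above their controls in all 4 comparisons was not counted, so the Ago1 pattern is not read as a rise. In embryos Ago1 was near 2 TPM, at 2.10 TPM with siLin28 and 2.30 TPM in the control.

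Ago2, at chr15:73095844-73184935 on the minus strand, encodes the Argonaute that can cut its target. It ranged from 45.4 to 77.6 TPM over the ES and iPS libraries, and the groups of every main comparison overlapped. With doxycycline it was at 63.9, 59.1 and 66.0 TPM, against 63.8, 77.6 and 72.1 TPM in control ilet7 ES, a change of -0.17 (95% interval -0.37 to 0.03). The values were 55.5 to 62.8 TPM in Lin28a-null ES, 48.7 to 62.2 TPM in ES libraries labelled Lin28b-null and 48.7 to 68.8 TPM in WT ES. In iPS cells they were 45.4 to 63.4 TPM in libraries labelled double knockout and 56.8 to 65.2 TPM in WT. Embryos had 49.3 TPM with siLin28 and 46.7 TPM in the control. Chrac1, on the opposite strand, overlaps Ago2 and had a median of 40.7 TPM. The library kit is not stated to keep strand, so reads where they overlap cannot be assigned with certainty.

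Dis3l2, at chr1:86703808-87050095 on the plus strand, encodes the 3′ to 5′ exonuclease that degrades uridylated pre-let-7. It was at 29.0, 30.5 and 26.6 TPM in Lin28a-null ES, against 30.9, 39.7 and 34.3 TPM in WT ES, without overlap. The change was -0.27 with an adjusted p of 0.105. It was higher in control ilet7 ES, at 47.0, 48.0 and 48.4 TPM, than in WT ES, by 0.45 (SE 0.10, adjusted p = 0.0278). That was the 1 of 9 genes to pass in that contrast, where 17.6% of all genes passed, 9.18% up and 8.46% down. The call was lost in 5 of 15 alternatives, each leaving out 1 library: any of the control ilet7 libraries, or WT replicate 1 or 3. Fibroblast markers were lower in control ilet7 ES, where 7 of 13 tested fell against WT, and their part was not tested. Doxycycline libraries had 49.6, 50.2 and 48.6 TPM, a change of 0.05 against control ilet7 ES (95% interval -0.07 to 0.17). The libraries labelled Lin28b-null had 35.7, 34.8 and 29.5 TPM, a change of -0.06 against WT ES (95% interval -0.37 to 0.24). In iPS cells Dis3l2 was at 24.8, 28.7 and 26.6 TPM in libraries labelled double knockout and 28.4, 27.1 and 27.9 TPM in WT, a change of -0.06 (95% interval -0.29 to 0.18). In embryos Dis3l2 was at 11.8 TPM with siLin28 and 2.15 TPM in the control, a difference of 2.02. A processed pseudogene on the opposite strand, Gm6136, lies inside Dis3l2 with a median of 168 TPM, so the Dis3l2 level is uncertain where they overlap.

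**Figure D4:**
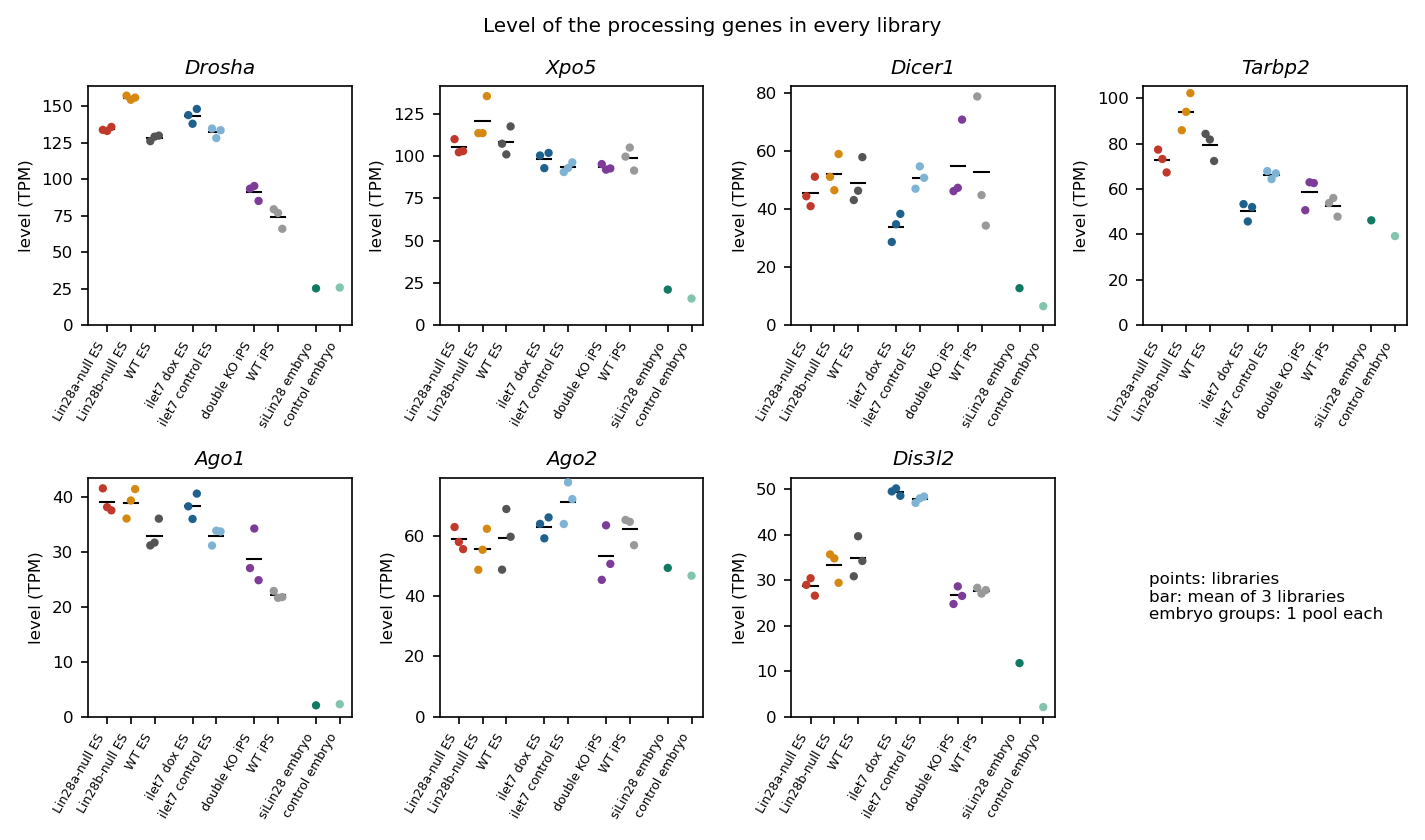
Level in TPM of the 7 processing genes other than Dgcr8 in every library. Points are libraries, bars means of 3 libraries, and each embryo group is 1 pool. Dicer1 and Tarbp2 are lower in all 3 doxycycline libraries than in their controls, Drosha is highest in the libraries labelled Lin28b-null, and Dis3l2 is highest in the ilet7 line with and without doxycycline.

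Lin28a-null libraries set against those labelled Lin28b-null differed in 4 of the 9 genes, Lin28a, Lin28b, Drosha and Tarbp2, all lower in Lin28a-null. In that contrast 46.9% of all genes passed, 25.8% up and 21.1% down in Lin28a-null, and after quantile normalization 44.8% of the genes that passed were up in place of 54.98%. In the contrast of the doxycycline effect and the Lin28a-null effect, 1 of 9 genes passed, Lin28b, where 28.2% of all genes passed, 16.2% up and 12.1% down.

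Around these genes, 42 others of the pathway were taken from 6 lists. In Lin28a-null ES 12 of 41 tested rose and 5 fell, with a median change of 0.13 beside 0.02 over all genes. In ES libraries labelled Lin28b-null 5 of 41 rose and 5 fell, with doxycycline 4 of 42 rose and 1 fell, and in libraries labelled double knockout 2 of 41 rose and 2 fell. Of all genes tested, 20.4% rose and 17.8% fell in Lin28a-null ES, 13.4% and 15.1% in the libraries labelled Lin28b-null, 13.3% and 5.68% with doxycycline, and 8.77% and 7.51% in libraries labelled double knockout.

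The uridylating enzymes TUT4 and TUT7 are listed under their older symbols Zcchc11 and Zcchc6. Neither passed in any of the 4 main comparisons. Tut7 was at 66.2 ± 3.35 TPM in Lin28a-null ES, 54.2 ± 2.77 TPM in ES libraries labelled Lin28b-null and 48.4 ± 11.1 TPM in WT ES (SD, n = 3 each). Its change in Lin28a-null ES was 0.47 with an adjusted p of 0.0582. In embryos Tut4 was at 24.7 TPM with siLin28 and 13.8 TPM in the control.

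Among 10 cofactors of DROSHA and binders of primary microRNAs, 5 rose and 1 fell in Lin28a-null ES, where 20.4% of all genes rose and 17.8% fell. Srrt, which links the cap-binding complex to microRNA processing, was at 382 ± 71.0 TPM, against 189 ± 14.3 TPM in WT ES, and rose by 1.00 (SE 0.14, adjusted p = 0.00184). Ncbp1, a cap-binding subunit, rose by 0.44. Khsrp, which binds let-7 precursors and promotes their processing, was at 132 ± 6.96 TPM, against 204 ± 12.3 TPM in WT ES, and fell by 0.62 (SE 0.07, adjusted p = 0.00101). In ES libraries labelled Lin28b-null 4 rose and 1 fell, where 13.4% of all genes rose and 15.1% fell. Srrt rose by 0.72 and the helicase gene Ddx5 by 0.48, and its relative Ddx17 fell by 0.41. Doxycycline moved 1 of the 10, Ddx5, up by 0.22, where 19.0% of all genes passed. In libraries labelled double knockout 1 moved, Hnrnpa2b1, up by 0.36, where 16.3% of all genes passed.

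Of 3 export and Dicer partner genes, Prkra, a DICER1 partner related to TARBP2, was at 15.3 ± 1.06 TPM in Lin28a-null ES, against 28.4 ± 2.42 TPM in WT ES, and fell by 0.86 (SE 0.11, adjusted p = 0.00150). Adar, an RNA-editing enzyme, rose by 0.59 in Lin28a-null ES and by 0.75 in libraries labelled double knockout, where it was at 103 ± 9.03 TPM, against 61.2 ± 11.3 TPM in WT iPS. Ran, the GTPase that XPO5 needs, fell by 0.19 with doxycycline. Of the other Argonautes, Ago3 was tested in all 4 comparisons and Ago4 in the doxycycline one, and neither passed.

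Of 16 silencing effectors, 4 rose and 2 fell in Lin28a-null ES, a share near the 38.2% of all genes that passed. They include Tnrc6b, a partner of Argonaute (0.64), the helicase gene Mov10 (-0.54) and Fmr1 (0.38). The libraries labelled Lin28b-null had 0 that rose and 2 that fell, where 13.4% of all genes rose and 15.1% fell. Mov10 fell by 0.71 and the decapping gene Dcp2 by 0.66. With doxycycline 3 rose and 0 fell, where 13.3% of all genes rose and 5.68% fell: Dcp2 (0.45), Tnrc6b (0.40) and Tnrc6c (0.38). In libraries labelled double knockout 0 rose and 2 fell, where 8.77% of all genes rose and 7.51% fell. Fmr1 fell by 0.45 and Snd1 by 0.35. Of 9 genes of microRNA stability and turnover, Zswim8, which drives target-directed microRNA decay (0.70), and Tent4b, listed as Papd5 (0.52), rose in Lin28a-null ES, and Parn, a deadenylase gene, fell by 0.49. Among libraries labelled Lin28b-null, Parn fell by 0.36 and Tsn by 0.30, and Xrn2 rose by 0.25. Of all genes tested, 38.2% passed in Lin28a-null ES and 28.6% in the libraries labelled Lin28b-null. No gene of the turnover list passed with doxycycline or in libraries labelled double knockout.

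**Figure D5:**
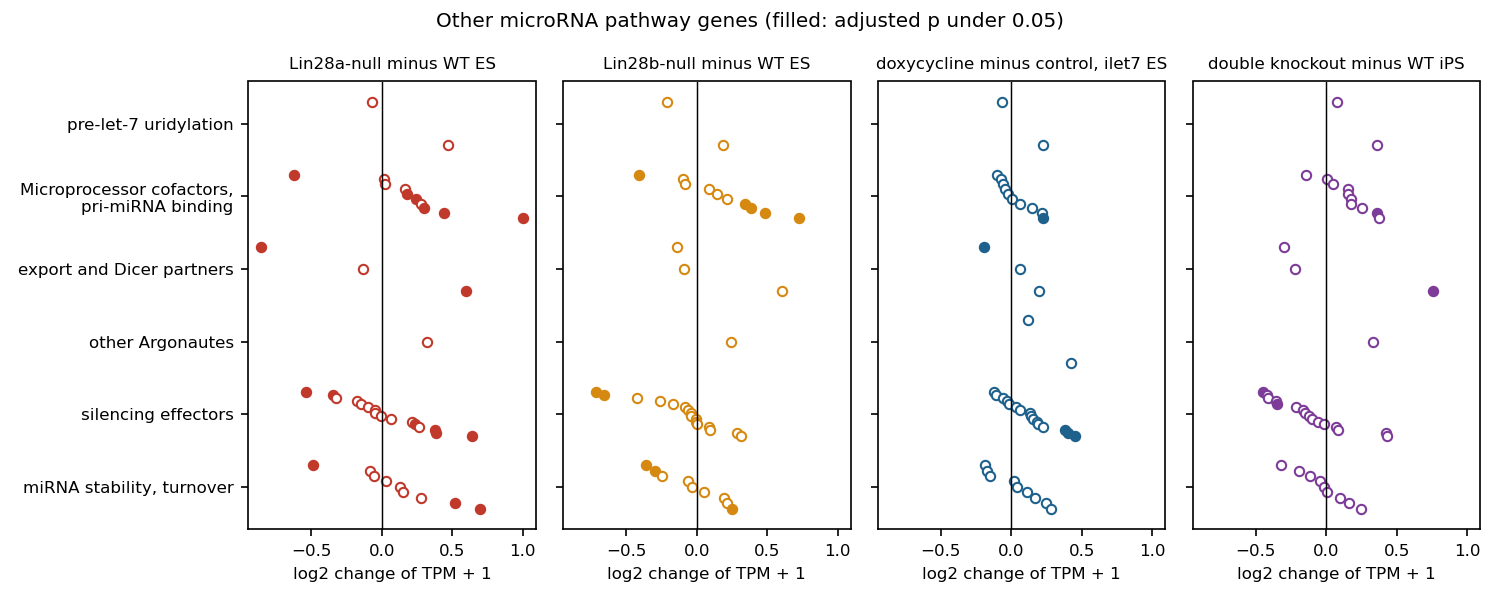
Log2 change of TPM + 1 of the other pathway genes in 4 comparisons, 1 panel each, by list. Each point is a gene and filled points have an adjusted p under 0.05. The Lin28a-null panel has 17 filled points and the double knockout panel 4, where 38.2% and 16.3% of all genes passed.

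The let-7 loci themselves had low values in these tables, which list genes and hold no mature microRNA. The labels give a poly-A selection for every library, but the iPS libraries also held RNAs without a poly-A tail, as the Rmrp values show, so levels of these loci are not compared between tables. Of 12 let-7 loci, 5 were listed at 0 in all ES libraries, 3 in all iPS libraries and 9 in both embryo pools. The highest, Mirlet7f-1, was at 4.37 to 9.28 TPM in libraries labelled double knockout, against 9.38 to 18.5 TPM in WT iPS, and reached 3.09 TPM in ES cells. Of the 4 loci tested in iPS libraries none passed, and none reached the filter in ES comparisons. Mature let-7 is not in the tables used here, so whether its level followed Lin28a was not tested here.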

How the data were processed

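RNA sequencing covered 15 ES, 6 iPS and 2 embryo libraries, and TPM values per gene were deposited in 1 table for each kind. Per the labels and the study's methods, the authors trimmed reads with Trimmomatic after base calling with CASAVA 1.8, aligned them to mm10 with HISAT2, removed duplicates with Picard, kept uniquely mapped reads and computed TPM with StringTie over GENCODE genes. TPM keeps no read depth, so depth is unknown and no counting interval is given. Columns summed to 999488 to 999886 TPM. Titles placed the embryo pools, because the treatment label names a knockdown for both.

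A gene entered a comparison when its TPM averaged 1 or more across the libraries compared, and was tested with limma 3.58.1 (R 4.3.3) on log2(TPM + 1) with a variance trend, two-sided, with Benjamini-Hochberg adjustment over all genes tested. A gene rose or fell at an adjusted p under 0.05. A fold change on this scale understates the change of low genes. Embryos had 1 pool a group and no test. Tested on simulated data, the fit recovered, of genes changed by 1 on the log2 scale, 66% in the Lin28a-null comparison (15935 genes), 59% in the Lin28b-null one (15432 genes), 77% in the doxycycline one (15881 genes) and 58% in the double knockout one (17483 genes), and 89% to 92% of genes changed by 2. Each size had 100 changed genes, drawn from those with a mean log2(TPM + 1) above 2. Many more genes passed in the real comparisons, so these shares need not hold there.

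The members and lists were chosen with earlier results of these data known. All 10 members are named, and of every other list up to 3 genes per main comparison with the largest change among those that passed. As alternatives, each library was left out in turn, a replicate block or all ES libraries in one fit were used, the variance trend was dropped, values were rescaled by quantiles or by median of ratios, the minimum was set to 5 TPM or removed, and the pseudocount was 0.1 or 0.5. Sequences and coordinates came from RefSeq and GENCODE M21 annotation of mm10, and the siRNA letters from the study's supplementary tables.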

Additional observations from a re-analysis of the deposited data

Results flagged for a closer look

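For 5 results the effects of 2 conditions differed by a test of the difference itself. The effect of doxycycline on Lin28b, minus the effect of the Lin28a-null label, was -0.81 on the log2(TPM + 1) scale (limma with Benjamini-Hochberg adjustment, adjusted p = 0.0127). The other 4 come from setting Lin28a-null ES directly against ES libraries labelled Lin28b-null, which equals the difference of their effects against the same WT libraries. Of all genes tested, 46.9% passed in this direct contrast and 28.2% in the contrast of the doxycycline and Lin28a-null effects. The 5 results are therefore not particular to these genes. Lin28a differed by -2.08 (adjusted p = 0.000106), Lin28b by -0.52 (adjusted p = 0.00660), Tarbp2 by -0.37 (adjusted p = 0.0124) and Drosha by -0.21 (adjusted p = 0.00827). Fibroblast marker sums, 3718 to 4862 TPM in Lin28a-null ES and 1278 to 1943 TPM in ES libraries labelled Lin28b-null, differed too, and their part was not tested. Groups of 3 libraries were too small to test for a single library that stands apart.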

How the results depend on the processing

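No change of any of the 10 genes that passed reversed its direction under an alternative. The number of the 9 tested genes that passed was 2 in Lin28a-null against WT ES, and 4 when 1 fit held every ES library (one fit). It was 3 in the libraries labelled Lin28b-null against WT ES, 1 with no variance trend and 5 in one fit. It was 2 in libraries labelled double knockout against WT iPS, and 1 with no filter on low values. It was 1 in control ilet7 against WT ES, and 3 in one fit. For the doxycycline effect minus the Lin28a-null effect it was 1, with 0 at a mean of at least 5 TPM, where Lin28b was no longer tested, and 3 after quantile normalization. Leaving out 1 library gave 1 to 2 in Lin28a-null, 1 to 3 in the libraries labelled Lin28b-null, 1 to 2 in libraries labelled double knockout, 0 to 3 in control ilet7 and 1 to 2 for the difference of effects. Same-numbered libraries did not deviate together (18 pairs, r from -0.14 to 0.13, 2 over 0.1). Pairs of unlike number ran from -0.13 to 0.17. The main fits used no pairing, and these values cannot show whether libraries were handled in pairs. With a replicate block, 1 gene passed in libraries labelled double knockout and 2 for the difference of effects, and 1231 genes rose and 429 fell with doxycycline, against 2118 and 903 without the block. Over all genes, doxycycline gave 3021 that passed, 1960 in one fit and 1612 to 2209 with 1 library left out, and 1475 in place of 903 fell after median-of-ratios scaling. The libraries labelled Lin28b-null gave 4434, and 2894 to 4718 with 1 left out, libraries labelled double knockout 2858 and 1801 to 2300, and control ilet7 2767, 1247 to 4549, and 4279 in one fit. The causes were not tested. In embryos 5.32% of genes were higher and 4.73% lower by at least 2-fold at a mean of at least 5 TPM. Depth is unknown, 3 libraries a group limit every test, and the embryo values have no replicate.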
